A study of Homo sapiens with 9 samples.

Results

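The BEX genes (brain expressed, X-linked) and the TCEAL genes (transcription elongation factor A-like) code for small adapter proteins and lie together on the long arm of the human X chromosome. The 10 genes described here, BEX1, BEX2, BEX3, BEX4, BEX5, TCEAL1, TCEAL3, TCEAL4, TCEAL8 and TCEAL9, were taken by name from the 60648 genes of the count table, through their Ensembl gene IDs. All 10 were in the table, and 9 were among the 19473 genes with enough reads to be tested, BEX5 being the exception. The genes were chosen by their levels in these same libraries, known from an earlier look at the counts, so their differences between lines are given as a description, with no p-value.

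The RNA came from 3 human lines of HEK293 origin, an embryonic kidney cell line with several neuronal features. TC4-2A cells carry an inducible insert that overexpresses a circular RNA made of early exons of the Survival Motor Neuron genes SMN1 and SMN2. TL4-2A cells overexpress a linear transcript of the same exons. T-REx cells are the control and overexpress neither RNA. All 3 lines received doxycycline (Dox), which switches the inserts on, for 96 h in total, with fresh Dox medium after 48 h, so Dox itself was shared by the control. Each line gave 3 libraries of total RNA depleted of ribosomal RNA. Whether a line is 1 clone and whether its libraries came from separate cultures is not given in the sources used here, so the spread between libraries may be technical, and an effect of the expressed RNA cannot be told apart from any other difference between the lines. In such bulk RNA, fewer cells that express a gene and less RNA of that gene per cell cannot be told apart either.

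Total counts ran from 16561680 to 21491977 per library, and the scaling factors of the libraries were 0.991 to 1.01. Replicates of a line differed by more than sampling noise, with a chi-square of 1.71 to 3.93 per gene. The 8 markers of HEK293 cells fixed for the check, EPCAM and VIM among them, were all expressed. Their summed level was 891 to 930.3 CPM (read counts scaled to a common library size) in TC4-2A libraries. It was 915 to 932 CPM in TL4-2A and 1164 to 1210.2 CPM in T-REx libraries. Against T-REx cells 6 of the 8 were called lower and 0 higher in TC4-2A cells, beside 14.6% and 14.2% of all genes tested. In TL4-2A cells 5 of the 8 were called lower and 0 higher, beside 22.5% and 21.9% of all genes. At an unadjusted p under 0.05 (edgeR) 1 was higher in TC4-2A cells. The 6 markers of other cell types summed to 9.34 to 10.9 CPM in TC4-2A, 8.24 to 8.66 CPM in TL4-2A and 11.8 to 12.3 CPM in T-REx libraries. Of those 6, PTPRC had no count in any TC4-2A library, and PTPRC, CD3E, ALB and PECAM1 stayed at 0 to 6 counts in every library. COL1A1, at 7.86 to 11.3 CPM (132 to 243 counts), made up most of the sum, and GFAP had 2 to 18 counts. COL1A1 was called lower than in T-REx cells for both lines, with a log2 fold change of -0.28 for TC4-2A and -0.48 for TL4-2A. GFAP was called lower for TL4-2A alone (-1.39), with 0.07 for TC4-2A. DESeq2 called 0 of the 6 lower for TC4-2A and 1 for TL4-2A. The part of these marker differences in the results below was not tested.

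BEX and TCEAL proteins are short, largely unstructured proteins of placental mammals that act by binding other proteins. BEX1 and BEX3 bind the intracellular part of the p75 neurotrophin receptor, which can send survival or death signals, and BEX3 is also known as NADE, for its role in cell death through that receptor. TCEAL proteins resemble part of the elongation factor TFIIS, which restarts stalled RNA polymerase II. The families are known to share a promoter element with the neighbouring GPRASP genes, and they are expressed most in brain.

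An element found here before the starts of the 10 genes is shown first. It was exact in 5 of them, some lower in TC4-2A cells and some not, and had 1 or 2 mismatches in the others. Whether it is the known element shared with the GPRASP genes was not checked. The sequences are from RefSeq (GRCh38.p14), in the order of the genes along chromosome X, written 5′ to 3′ on the strand of the gene. Each runs from 25 bases before the element to 25 bases after it or to the last base before the annotated start. Capitals mark the best match to TCACGTGACC, 10 bases that 5 of the genes hold exactly before their starts. It was picked as the 10 bases held exactly by the largest number of these genes, after the sequences and values had been seen. How often these genes hold it was raised by that choice, so the shares given below are no test of enrichment.
BEX5: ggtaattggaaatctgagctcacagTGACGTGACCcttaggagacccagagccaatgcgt
BEX1: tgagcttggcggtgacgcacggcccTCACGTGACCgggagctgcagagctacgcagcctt
BEX4: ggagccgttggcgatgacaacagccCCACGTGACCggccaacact
TCEAL8: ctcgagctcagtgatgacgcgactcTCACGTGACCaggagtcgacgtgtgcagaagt
BEX2: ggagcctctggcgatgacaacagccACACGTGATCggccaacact
TCEAL9: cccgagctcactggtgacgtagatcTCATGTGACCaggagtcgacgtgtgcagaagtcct
BEX3: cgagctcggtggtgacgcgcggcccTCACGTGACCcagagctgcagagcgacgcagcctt
TCEAL4: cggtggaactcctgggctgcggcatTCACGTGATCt
TCEAL3: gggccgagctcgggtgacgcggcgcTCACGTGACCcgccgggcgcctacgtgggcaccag
TCEAL1: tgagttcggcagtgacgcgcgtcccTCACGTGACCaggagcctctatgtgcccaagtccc

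On GRCh38.p14 these stretches lie at chrX:102155996-102156055 for BEX5 (minus strand), chrX:103064185-103064244 for BEX1 (minus), chrX:103215063-103215107 for BEX4 (plus), chrX:103255156-103255212 for TCEAL8 (minus) and chrX:103310991-103311035 for BEX2 (minus). Those of TCEAL9, BEX3, TCEAL4, TCEAL3 and TCEAL1, all on the plus strand, lie at chrX:103356443-103356502, chrX:103376465-103376524, chrX:103585479-103585514, chrX:103607857-103607916 and chrX:103628893-103628952. RefSeq places some starts, such as that of TCEAL4, inside the gene as Gencode draws it.

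The 10-base element stood with no mismatch in the 250 bases before the start of BEX1, TCEAL8, BEX3, TCEAL3 and TCEAL1, that is in 5 of 10 genes, against 0.505% of the 27305 genes with a RefSeq promoter, on either strand. With up to 1 mismatch it was found before 9 of 10 genes and 3.17% of all genes, and with up to 2 before 10 of 10 and 17.5%. Its core CACGTG, the E-box read by many basic helix-loop-helix factors, was present in 8 of 10 genes, against 7.73% of all genes. The window of TCEAL9 and that of BEX5 did not hold these letters exactly. The 8 bases TCACGTGA, which contain the core, were present in 6 of 10 genes and 1.04% of all genes. Core and 8 bases were cut from the 10-base element, so their shares were raised by the same choice. The element was not particular to the list. Of the TCEAL genes outside it, TCEAL2, TCEAL5 and TCEAL6 had a RefSeq promoter. The core and the 8 bases were present in 3 of these 3, and the exact 10 bases in 1, TCEAL2. The element began 11 bases before the start of TCEAL4, the closest, and 81 bases before that of TCEAL3, the farthest. Whole promoters were more alike in some pairs than in others. BEX4 and BEX2 were identical at 85.1% of the positions of an alignment of the 250 bases before the start, and BEX1 and BEX3 at 70.2%. TCEAL8 and TCEAL9, at 58.9%, stood little above the remaining pairs, which ran from 43.5% to 56.5%.

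**Figure D1:**
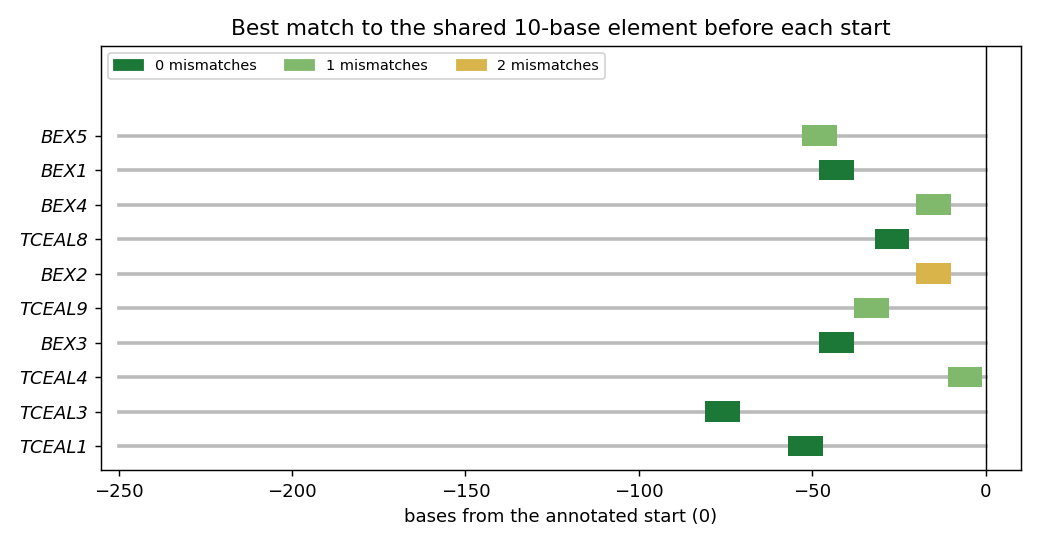
Position of the best match to the shared 10-base element (coloured blocks) in the 250 bases before the annotated start of each of the 10 genes, in bases from the start, with genes in chromosome order and colour giving the number of mismatches. The blocks begin between 81 and 11 bases before the start, and 5 of the 10 have no mismatch.

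For the 5 genes that held the exact element, the log2 fold change (TC4-2A over T-REx cells) was -0.02 for BEX1, -0.96 for TCEAL8, -0.62 for BEX3, -0.43 for TCEAL3 and -0.07 for TCEAL1. It was -0.72 for BEX4, -1.06 for BEX2, -0.94 for TCEAL9 and -0.17 for TCEAL4, which held it with mismatches. The part of the element in these differences was not tested.

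Per kilobase of exon, BEX3 was the most abundant of the genes in every line, at 123 ± 2.39 CPM per kb in TC4-2A, 199 ± 6.91 in TL4-2A and 189 ± 5.03 in T-REx cells (SD, n = 3). BEX1 followed at 84.7 ± 0.630 CPM per kb in TC4-2A, 85.0 ± 6.07 in TL4-2A and 86.2 ± 5.88 in T-REx cells (SD, n = 3). In T-REx cells the order continued with TCEAL8, BEX4, TCEAL4, BEX2, TCEAL9, TCEAL1, TCEAL3 and BEX5, and the libraries of neighbours in that order did not overlap. In TL4-2A cells the order was the same, but the libraries of TCEAL4 and BEX2 overlapped, as did those of TCEAL9 and TCEAL1. In TC4-2A cells TCEAL1, at 11.4 CPM per kb, stood above BEX2, at 9.62, and TCEAL9, at 7.78 CPM per kb, with no overlap between neighbours. BEX5, the lowest, had counts of 4, 0 and 2 in TC4-2A, 0, 0 and 1 in TL4-2A and 1, 5 and 3 in T-REx libraries. Its level could not be compared at this depth.

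BEX3 (ENSG00000166681.14, chrX:103376395-103378164), the p75 receptor adapter, had 140.0, 135 and 137 CPM in TC4-2A libraries, 219, 229 and 214 CPM in TL4-2A libraries and 205, 217 and 210.1 CPM in T-REx libraries. All 3 TC4-2A libraries lay below every other library, and the TL4-2A and T-REx libraries overlapped. TC4-2A against T-REx cells gave a log2 fold change of -0.62 (SE 0.031, 95% interval -0.68 to -0.56). It was 0.07 (SE 0.031) in TL4-2A against T-REx cells and -0.69 (SE 0.031) in TC4-2A against TL4-2A cells. BEX3 alone made up 37.3% of the summed CPM of the 10 genes in TC4-2A cells, 42.9% in TL4-2A and 40.1% in T-REx cells.

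BEX1 (ENSG00000133169.6, chrX:103062651-103064171), the other p75 receptor binder of the list, had 66.8, 67.6 and 67.7 CPM in TC4-2A libraries, 62.4, 72.0 and 68.3 CPM in TL4-2A libraries and 63.1, 70.9 and 71.5 CPM in T-REx libraries. The libraries of all 3 lines overlapped. The log2 fold change was -0.02 in TC4-2A against T-REx cells, with a 95% interval of -0.13 to 0.08, -0.02 in TL4-2A against T-REx cells, with -0.12 to 0.08, and -0.01 in TC4-2A against TL4-2A cells, with -0.11 to 0.10. These intervals leave room for differences of up to about 0.13 on the log2 scale in either line against T-REx cells.

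BEX2 (ENSG00000133134.12, chrX:103309346-103311007), known as a binding partner of the transcriptional regulator LMO2, had 10.9, 10.2 and 11.7 CPM in TC4-2A libraries, 20.4, 23.1 and 19.9 CPM in TL4-2A libraries and 22.9, 21.5 and 24.1 CPM in T-REx libraries. The TC4-2A libraries lay below all 6 others, and the TL4-2A libraries overlapped those of T-REx cells. At -1.06 on the log2 scale (SE 0.075, 95% interval -1.21 to -0.91), a ratio of 0.479 to T-REx cells, BEX2 had the lowest value of the 9 genes in TC4-2A cells. It stood at -0.11 (SE 0.068) in TL4-2A against T-REx cells and -0.95 (SE 0.077) in TC4-2A against TL4-2A cells. BEX1 and BEX2 transcripts share an identical run of 75 bases, and BEX2 and BEX4 transcripts 1 of 53 bases. Reads within such a run could have been assigned to either gene of the pair.

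BEX4 (ENSG00000102409.10, chrX:103215108-103217246), reported to bind tubulin, had 28.1, 26.9 and 26.3 CPM in TC4-2A libraries, 44.02, 42.5 and 42.5 CPM in TL4-2A libraries and 43.0, 44.8 and 46.0 CPM in T-REx libraries. Again the TC4-2A libraries were the 3 lowest, while those of the other lines overlapped. As a log2 fold change this was -0.72 (SE 0.050) in TC4-2A against T-REx cells, -0.05 (SE 0.048) in TL4-2A against T-REx cells and -0.67 (SE 0.051) in TC4-2A against TL4-2A cells.

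**Figure D2:**
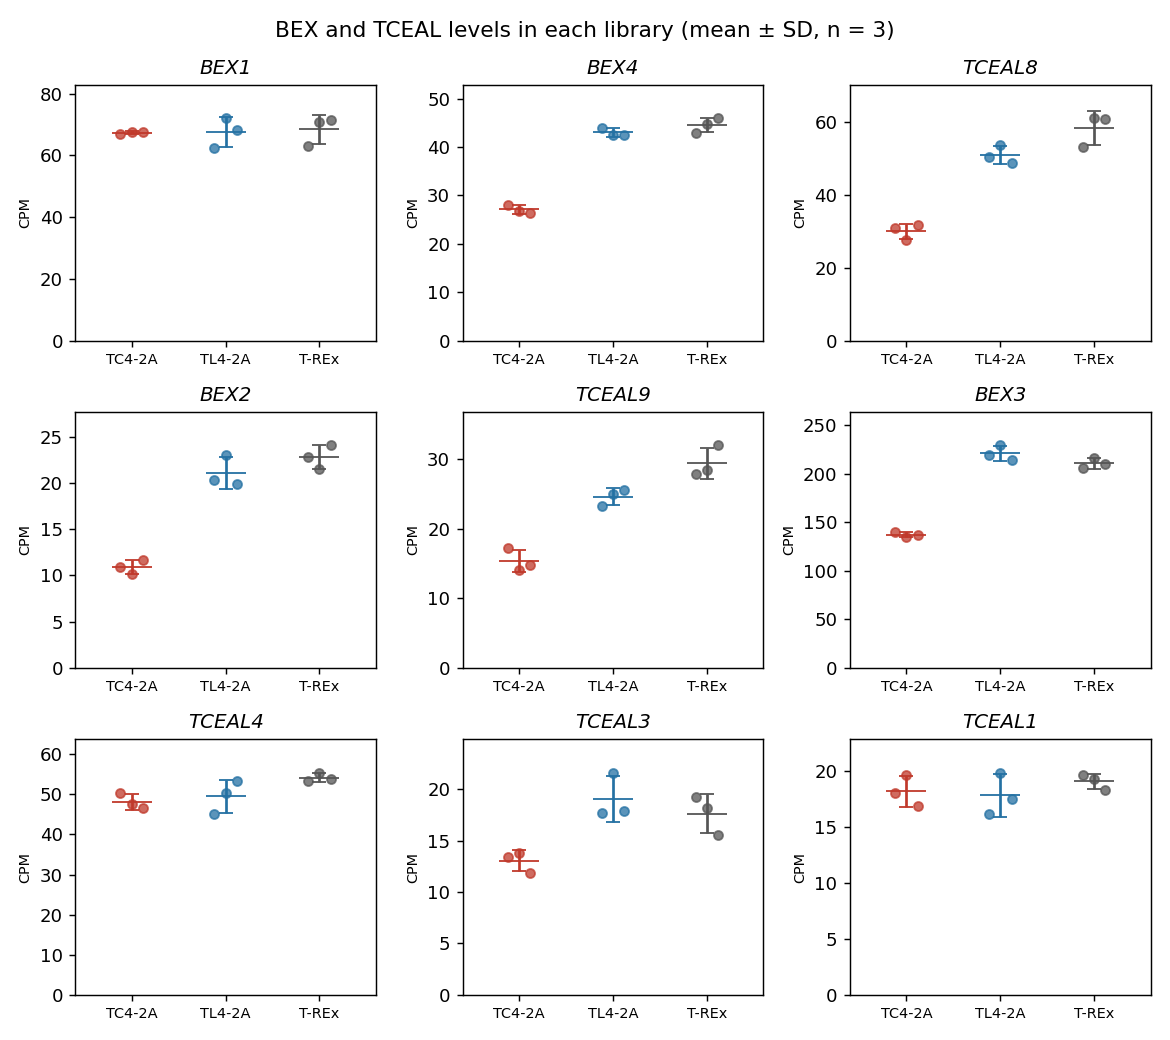
Normalised level in CPM of the 9 genes that were tested, in each library (points) of each line, with the mean (long line) and SD (error bar, n = 3 per line) and genes in chromosome order. The TC4-2A points of BEX4, TCEAL8, BEX2, TCEAL9, BEX3 and TCEAL3 lie below all points of the other lines, and those of BEX1 and TCEAL1 overlap them.

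Of the TCEAL genes, TCEAL8 and TCEAL9 had the lowest log2 fold changes in TC4-2A cells. TCEAL8 (ENSG00000180964.17, chrX:103252995-103255192), a member with little known function, had 30.7, 27.6 and 31.5 CPM in TC4-2A libraries, 50.3, 53.6 and 48.8 CPM in TL4-2A libraries and 53.0, 60.9 and 60.8 CPM in T-REx libraries. The TC4-2A libraries lay below all others, and a single TL4-2A library reached the range of T-REx cells. Its difference on the log2 scale was -0.96 (SE 0.057) in TC4-2A against T-REx cells, -0.19 (SE 0.055) in TL4-2A against T-REx cells and -0.77 (SE 0.059) in TC4-2A against TL4-2A cells.

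TCEAL9 (ENSG00000185222.10, chrX:103356489-103358462), earlier named WBP5 as a binder of WW domains, had 17.2, 14.1 and 14.8 CPM in TC4-2A libraries, 23.2, 24.98 and 25.6 CPM in TL4-2A libraries and 27.9, 28.4 and 32.0 CPM in T-REx libraries. The 3 lines did not overlap, with TC4-2A lowest and T-REx highest. On the log2 scale the differences were -0.94 (SE 0.068) in TC4-2A against T-REx cells, -0.26 (SE 0.064) in TL4-2A against T-REx cells and -0.68 (SE 0.071) in TC4-2A against TL4-2A cells.

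TCEAL3 (ENSG00000196507.11, chrX:103607451-103629690) had 13.4, 13.8 and 11.9 CPM in TC4-2A libraries, 17.7, 21.6 and 17.9 CPM in TL4-2A libraries and 19.2, 18.2 and 15.5 CPM in T-REx libraries. All TC4-2A libraries lay below the other 6, which overlapped each other. The fitted log2 difference was -0.43 (SE 0.085) in TC4-2A against T-REx cells, 0.12 (SE 0.082) in TL4-2A against T-REx cells and -0.55 (SE 0.086) in TC4-2A against TL4-2A cells.

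TCEAL1 (ENSG00000172465.14, chrX:103628704-103630953), described as a nuclear regulator of promoter activity, had 18.0, 19.7 and 16.9 CPM in TC4-2A libraries, 16.2, 19.9 and 17.5 CPM in TL4-2A libraries and 19.7, 19.3 and 18.3 CPM in T-REx libraries. The lines overlapped, and the log2 fold change in TC4-2A against T-REx cells was -0.07 (95% interval -0.21 to 0.08). TCEAL3 and TCEAL1 share 287 exonic bases on the same strand in Gencode, which is 12.5% of the exon length of TCEAL3 and 17.9% of that of TCEAL1, and an identical transcript run of 197 bases. How reads in that part were assigned is not given in the sources used here, so the levels of both genes are uncertain to that extent. TCEAL3 also shares runs of 123 bases with TCEAL6, 80 bases with TCEAL5 and 41 bases with TCEAL4.

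TCEAL4 (ENSG00000133142.18, chrX:103576231-103587729) had 50.3, 47.5 and 46.5 CPM in TC4-2A libraries, 45.0, 50.3 and 53.2 CPM in TL4-2A libraries and 53.2, 55.4 and 53.9 CPM in T-REx libraries. The TC4-2A and TL4-2A libraries overlapped, and both lay below those of T-REx cells, by under 0.1 CPM for the nearest TL4-2A library. Fitted log2 differences were -0.17 (SE 0.052) in TC4-2A against T-REx cells, -0.13 (SE 0.052) in TL4-2A against T-REx cells and -0.04 (SE 0.053) in TC4-2A against TL4-2A cells. TCEAL4 was past the call threshold against T-REx cells in both lines, but not in TC4-2A cells once T-REx replicate 2 was left out (-0.15). In TL4-2A cells it was no longer past it without T-REx replicate 2 (-0.11) or 3 (-0.14), without TL4-2A replicate 1 (-0.07) or 2 (-0.14), or with DESeq2 (-0.13).

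At an adjusted p under 0.05 over all genes tested (edgeR), 7 of the 9 genes were called lower in TC4-2A against T-REx cells and 0 higher. Of all genes tested 14.6% were called lower and 14.2% higher in that comparison, 28.8% in either direction. The exceptions were BEX1 and TCEAL1. In TL4-2A against T-REx cells 3 of 9 were called lower, TCEAL8, TCEAL9 and TCEAL4, and 0 higher, where 22.5% of all genes were called lower and 21.9% higher, 44.3% in either direction. In TC4-2A against TL4-2A cells 6 of 9 were called lower and 0 higher, where 17.8% of all genes were called lower and 17.6% higher, 35.4% in either direction. With DESeq2 0 of the 9 were called higher in each comparison. At an unadjusted p under 0.05 (edgeR) 1 was higher, BEX3 in TL4-2A against T-REx cells, and 0 in the other comparisons. Since the list was drawn up from these data, nothing is read from these counts. The median log2 fold change of the 9 genes was -0.62 in TC4-2A against T-REx, -0.09 in TL4-2A against T-REx and -0.67 in TC4-2A against TL4-2A cells, and the median of all genes tested was 0.00 in each. The TC4-2A libraries all lay below the T-REx libraries for 7 of the 9 genes, as for 20.3% of all genes, and below the TL4-2A libraries for 6 of 9, as for 22.4% of all genes. The TL4-2A libraries all lay below the T-REx libraries for 2 of 9, as for 26.0% of all genes. The comparisons with T-REx cells share the T-REx libraries, and the comparisons of TC4-2A cells share the TC4-2A libraries.

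Along the chromosome, the 5 genes with the lowest log2 fold changes in TC4-2A cells were neighbours. BEX4, TCEAL8, BEX2, TCEAL9 and BEX3 follow each other within 163 kb (chrX:103215108-103378164), and of the 9 genes of the table in that stretch these 5 had enough reads to be tested. This run was picked out after its values were seen and has no test. BEX1 ends 151 kb before it and TCEAL4 starts 198 kb after it. The summed level of the run was 227, 214 and 221 CPM in TC4-2A libraries, 357, 373 and 351 CPM in TL4-2A libraries and 352, 372 and 373 CPM in T-REx libraries. The sum in TC4-2A cells was 0.603 of that in T-REx cells, and the sum in TL4-2A cells 0.986. The remaining 5 genes of the list summed to 0.920 of the T-REx level in TC4-2A cells and 0.965 of it in TL4-2A cells. BEX1 and TCEAL4 made up most of that sum. Taken singly, the fitted ratios of TC4-2A to T-REx cells were 0.742 for TCEAL3, 0.888 for TCEAL4, 0.955 for TCEAL1 and 0.983 for BEX1.

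**Figure D3:**
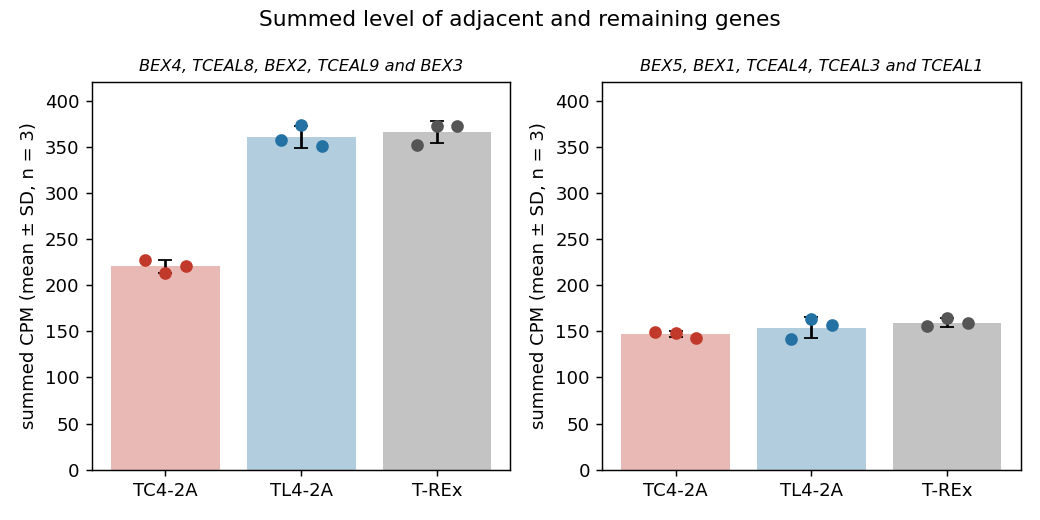
Summed CPM of the 5 adjacent genes (left) and of the remaining 5 genes (right) in each library (points), with the mean (bar) and SD (error bar, n = 3 per line) for the 3 lines. The adjacent genes sum to 214 to 227 CPM in TC4-2A libraries and to 351 CPM or more in all others, and the remaining genes to 143 to 149 CPM in TC4-2A, 141 to 164 CPM in TL4-2A and 155 to 164 CPM in T-REx libraries.

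Over the 9 libraries, log2 CPM of the genes of the run moved together, with Pearson's r of 0.91 to 0.98 between pairs. BEX1 had r of 0.10 to 0.21 with the same genes. Of the other genes outside the run, TCEAL3 had r of 0.75 to 0.90 with them, TCEAL4 0.46 to 0.71 and TCEAL1 0.08 to 0.17. These values describe libraries that fall into 3 lines, so they largely restate the differences between lines. Of the 12297 protein-coding genes with a mean of at least 1 log2 CPM, GPRC5A (r = 0.997) and LPCAT1 (r = 0.994) had the pattern most like that of BEX3 over the 9 libraries. GPRC5A, an orphan receptor, had 59.8, 56.1 and 57.1 CPM in TC4-2A, 85.1, 86.1 and 84.8 CPM in TL4-2A and 80.02, 82.7 and 82.6 CPM in T-REx libraries. TMA7 (r = 0.921) and H2BC12L (r = 0.919, on 23 to 52 counts per library) were the most like BEX1. The lines overlapped for BEX1, so these values follow the spread between libraries more than the lines. BEX1, TMA7 and H2BC12L were each lowest in TL4-2A replicate 1 and next lowest in T-REx replicate 1. NFE2L3 (r = 0.955) was among the most like TCEAL4.

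The other tested genes around the cluster differed among themselves. MORF4L2, a chromatin protein gene past the end of the cluster and the most abundant one there, had 312, 302 and 302 CPM in TC4-2A, 279.95, 297 and 283 CPM in TL4-2A and 332, 339 and 332 CPM in T-REx libraries. Its log2 difference from T-REx cells was -0.13 in TC4-2A (adjusted p = 0.0004, edgeR) and -0.22 in TL4-2A cells (adjusted p = 3.4e-08, edgeR). GPRASP2, before BEX1, stood at -0.08 on the log2 scale in TC4-2A against T-REx cells (adjusted p = 0.49, edgeR). RAB40AL, the nearest tested coding gene before BEX1, had 0.22 in that comparison with an SE of 0.28 (adjusted p = 0.62, edgeR). Between BEX3 and TCEAL4, the coding gene RAB40A stood at -0.49 on the log2 scale in TC4-2A cells (adjusted p = 0.0504, edgeR). Without T-REx replicate 2 or 3 or TC4-2A replicate 3 it was called, at -0.62, -0.64 and -0.68, as it was with RLE scaling, without the expression filter and with at least 10 counts in every library (-0.49 in each). The non-coding genes ENSG00000281091 and ENSG00000234405, named after their values were seen, lie in the same interval and were lower in TC4-2A cells, at -0.56 (adjusted p = 0.014, edgeR) and -0.65 (adjusted p = 0.0070, edgeR). TMSB15A, a thymosin gene before BEX1, was called lower at -1.14 (adjusted p = 0.0062, edgeR) on counts of 10 to 11 in TC4-2A and 16 to 32 in T-REx libraries, and not without T-REx replicate 2 (-0.90). ARMCX2 (-0.05), ZMAT1 (-0.26) and TMEM31 (0.20) were not called in TC4-2A cells.

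**Figure D4:**
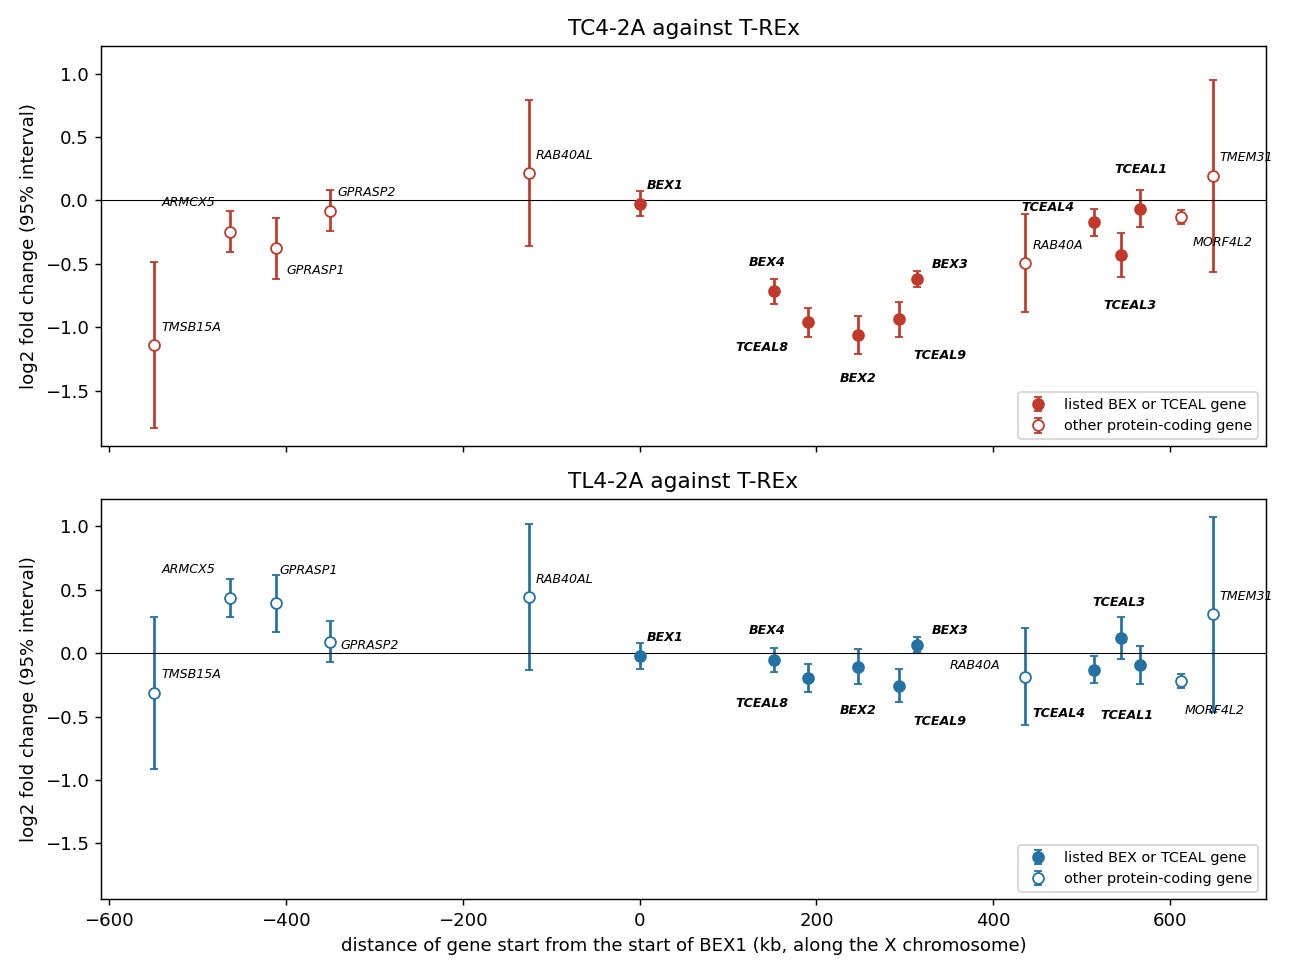
Log2 fold change with its 95% interval (error bars) of the BEX and TCEAL genes tested (filled points) and of other protein-coding genes (open points) against distance from the start of BEX1 in kb, for TC4-2A against T-REx cells (top) and TL4-2A against T-REx cells (bottom). In TC4-2A cells the 5 genes from BEX4 to BEX3 lie between -1.06 and -0.62, with BEX1 at -0.02, and in TL4-2A cells the same 5 lie between -0.26 and 0.07.

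The 4 TCEAL genes outside the list, TCEAL2, TCEAL5, TCEAL6 and TCEAL7, had 0 to 7 counts per library and 0 of 4 were tested, although TCEAL5 and TCEAL7 lie within the run. The ARMCX and GPRASP genes, armadillo-repeat and receptor-sorting relatives on the same chromosome arm, were called lower in 4 of 7 and higher in 0 of 7 in TC4-2A against T-REx cells, beside 14.6% and 14.2% of all genes. In TL4-2A against T-REx cells they were called higher in 4 of 7 and lower in 0 of 7, beside 21.9% and 22.5% of all genes. Both counts of 0 (edgeR) were also 0 at an unadjusted p under 0.05 and with DESeq2, which called 2 of 7 lower in TC4-2A and 4 of 7 higher in TL4-2A cells. ARMCX3, a mitochondrial transport gene, had 21.5, 19.7 and 18.7 CPM in TC4-2A, 41.2, 40.8 and 41.8 CPM in TL4-2A and 34.7, 35.6 and 33.4 CPM in T-REx libraries, with no overlap between lines. Against T-REx cells it stood at -0.79 in TC4-2A (adjusted p = 6.7e-15, edgeR) and at 0.25 in TL4-2A (adjusted p = 3.5e-05, edgeR). ARMCX5 had -0.25 in TC4-2A (adjusted p = 0.016, edgeR) and 0.43 in TL4-2A (adjusted p = 9.3e-06, edgeR), and GPRASP1 had -0.38 (adjusted p = 0.014, edgeR) and 0.39 (adjusted p = 0.0039, edgeR). The TC4-2A calls were lost without T-REx replicate 1 for both (-0.22 and -0.33), without TC4-2A replicate 1 for ARMCX5 (-0.20) and without TC4-2A replicate 2 for GPRASP1 (-0.30). The TL4-2A call of GPRASP1 was lost without TL4-2A replicate 3 (0.30). ARMCX4 had 0.00 in TC4-2A (adjusted p = 0.99, edgeR) and 0.26 in TL4-2A (adjusted p = 0.0011, edgeR).

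Of 15 genes for the p75 receptor, its ligands and partners of BEX proteins, 13 were tested. In TC4-2A against T-REx cells 5 of the 13 were called lower and 0 higher, beside 14.6% and 14.2% of all genes, and the median log2 difference was -0.30. The count of 0 (edgeR) was also 0 at an unadjusted p under 0.05 and with DESeq2. In TL4-2A against T-REx cells 5 of the 13 were called lower and 2 higher, beside 22.5% and 21.9% of all genes, with a median of -0.16. NTF3, the ligand neurotrophin-3, had 0.55, 0.52 and 0.43 CPM in TC4-2A, 1.57, 1.28 and 1.16 CPM in TL4-2A and 1.75, 2.97 and 2.30 CPM in T-REx libraries. These levels rest on 8 to 11 counts in TC4-2A, 19 to 26 in TL4-2A and 33 to 64 in T-REx libraries. Against T-REx cells its log2 difference was -2.22 in TC4-2A (adjusted p = 6e-08, edgeR) and -0.82 in TL4-2A (adjusted p = 0.0046, edgeR), the second of which was not called without T-REx replicate 2 (-0.60). NTRK2, the receptor TrkB, was lower in both lines, at -0.47 for TC4-2A (adjusted p = 0.0025, edgeR) and -1.40 for TL4-2A cells (adjusted p = 2e-10, edgeR). BCL2, which blocks apoptosis, was at -0.40 in both lines (adjusted p = 1.5e-08 for TC4-2A, 1.2e-08 for TL4-2A, edgeR), and SORT1, the co-receptor sortilin, at -0.21 and -0.20 (adjusted p = 6.5e-07 for TC4-2A, 7.6e-07 for TL4-2A, edgeR).

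The 28 genes of TFIIS and other elongation factors, to which TCEAL proteins owe their name, were all tested. In TC4-2A against T-REx cells 5 were called higher, 3 lower and 20 neither, near the 14.2% higher and 14.6% lower of all genes, with a median log2 difference of 0.01. In TL4-2A against T-REx cells 5 were called higher, 8 lower and 15 neither, beside 21.9% higher and 22.5% lower of all genes, with a median of -0.03. SUPT5H, a subunit of the pausing and elongation factor DSIF, was higher by 0.12 in TC4-2A (adjusted p = 0.0012, edgeR) and by 0.34 in TL4-2A cells (adjusted p = 7.8e-13, edgeR). SUPT6H, a histone chaperone of elongating polymerase, was higher by 0.08 (adjusted p = 0.017, edgeR) and by 0.28 (adjusted p = 6.8e-11, edgeR), and the TC4-2A call was lost without T-REx replicate 2 (0.08) or TC4-2A replicate 2 (0.07). ELOA, the elongin A subunit, had 0.07 in TC4-2A (adjusted p = 0.10, edgeR) and -0.37 in TL4-2A cells (adjusted p = 1.5e-11, edgeR). ELL2, of the super elongation complex, had -0.07 in TC4-2A (adjusted p = 0.24, edgeR) and -0.26 in TL4-2A cells (adjusted p = 1.8e-05, edgeR).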

How the data were processed

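RNA of 9 libraries, 3 per line, was measured. The authors mapped paired-end reads of directional, rRNA-depleted libraries to GRCh38 with HISAT2 and deposited raw counts per gene from featureCounts with Gencode v33. For versions, strand and multimapping options the sources used here give nothing. Deposited tables of DESeq2 fold changes and p-values were not used.

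Of 60651 records, 3 damaged ones were left out. Gene positions, symbols and exon lengths came from Gencode v44 and promoters from RefSeq. The test of the counts was the quasi-likelihood test of edgeR 4.0.16 (R 4.3.3) after filterByExpr and TMM scaling (factors 0.991 to 1.01), in 1 fit of all libraries by line, 2-sided, with Benjamini-Hochberg adjustment and calls under 0.05. The test was checked on simulated data. CPM were scaled by TMM library sizes. Alternatives were DESeq2 1.42.0, RLE scaling, other filters, only the lines compared, a replicate block and leaving out each library.

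The genes and lists were chosen with earlier results of these data known. Besides the 10 genes, the text names the 4 TCEAL paralogs, tested coding genes between the members and the 2 nearest on each side, the 4 genes with the smallest p in either line of each other list, and the 2 genes most correlated with each of the 3 members of highest mean CPM over the 9 libraries. Of the genes most correlated with TCEAL4, 1 is not reported here.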

Additional observations from a re-analysis of the deposited data

Results flagged for a closer look

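ARMCX3 lies before the listed genes on chromosome X, and ARMCX5 and GPRASP1 lie between BEX5 and BEX1. All were lower in TC4-2A than in T-REx cells and higher in TL4-2A than in T-REx cells. The difference between TC4-2A and TL4-2A cells was past the threshold too. It combines the other differences, which share the T-REx libraries, so it adds no separate evidence. The log2 fold change of TC4-2A against TL4-2A cells was -1.05 for ARMCX3 (adjusted p = 1.1e-18, edgeR), -0.77 for GPRASP1 (adjusted p = 1.1e-06, edgeR) and -0.68 for ARMCX5 (adjusted p = 2.6e-09, edgeR). For each gene all 3 TC4-2A libraries lay below all 3 TL4-2A libraries, as they did for 22.4% of all genes tested. That order was fixed by the comparisons with T-REx cells. The TC4-2A libraries lay below all T-REx libraries for each gene, and the TL4-2A libraries above them.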

How the results depend on the processing

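Over 15 alternatives per comparison, no value changed sign past the threshold. Leaving out single libraries gave 0 to 1 genes of the list called higher in TL4-2A against T-REx cells, the 1 being BEX3 without TL4-2A replicate 3 (0.09). Of the values of single genes of the list under alternatives, 398 kept their side of the threshold, 6 lost the call, all of TCEAL4, and 1 gained it. Of those of other genes, 856 kept it, 25 lost it and 9 gained it. With DESeq2 the TC4-2A calls of ARMCX5 (-0.25) and GPRASP1 (-0.38) were lost as well. Over all genes tested, same-numbered libraries of different lines did not deviate together (r of -0.029 to 0.030). Libraries of different number gave r of -0.020 to 0.034. The check takes all genes at once, so it cannot exclude a pairing that touches part of the genes. With the number as a replicate block, 2881 genes were called lower and 2822 higher in TC4-2A against T-REx cells, against 2837 and 2770 without it. The list had 7, 3 and 6 genes called lower in the 3 comparisons under the block, as without it. RAB40A was called lower in TC4-2A cells under it (-0.49). Depth limits BEX5 and the TCEAL paralogs, at 0 to 7 counts per library.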
